A study of Mus musculus with 14 samples.

Results

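The genes described here are 40 mouse genes of the endoplasmic reticulum (ER), the compartment in which secreted and membrane proteins are folded. They were taken from a fixed list of gene names that covers folding, secretion and the unfolded protein response, and each of the 40 had 1 probe set of its own among the 19155 genes measured. Expression was read on 14 Affymetrix mouse Gene ST 1.0 arrays of multipotent progenitors (MPP) sorted from the bone marrow of C57BL/6 wild-type mice, for which no treatment is named, so all groups share strain and genotype. Young mice were aged 8 to 10 weeks and old mice 24 months, and 20000 cells were sorted for each array. MPP3, the myeloid-biased population, were Lin-/cKit+/Sca-1+ cells without Flk2 that carried CD48, whereas MPP4, the lymphoid-biased population, were Lin-/cKit+/Sca-1+ cells that carried Flk2. The description deposited with the arrays gives MPP3 as CD150-, and the methods of the study give them as CD150+. Young MPP4 had 5 arrays and each of the other groups 3, described in the methods as independent biological replicates. How many animals stood behind an array is not given in the sources used here.

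Proteins that enter the ER pass through the Sec61 channel, lose their signal peptide, receive sugars and disulfide bonds, and are folded by chaperones such as BiP (Hspa5), GRP94 (Hsp90b1) and calreticulin (Calr). Proteins that fail to fold are pulled back to the cytosol and degraded, a route called ER-associated degradation. When unfolded proteins build up, the sensors IRE1 (Ern1), ATF6 and PERK (Eif2ak3) start the unfolded protein response. IRE1 splices the mRNA of the factor XBP1, which with ATF6 raises chaperones and degradation factors, and PERK slows translation and raises the factor ATF4. In blood, this machinery is best known from plasma cells and from granulocyte precursors, which load secretory granules.

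The deposited normalized value gives the rank of a gene on its array, as the natural logarithm of the share of probe sets ranked that high or higher, with the sign turned. A value of 1 thus marks the brightest 36.8% of probe sets, 2 the brightest 13.5% and 3 the brightest 4.98%, and differences are given in this unit and not as folds. The mean of a member over all arrays lay between 0.630 and 3.98 with a median of 2.04, against a median of 0.695 over all genes, and 22 of the 40 members against 10.4% of all genes were above 2. Any pair of arrays correlated at 0.946 to 0.993. Flt3 encodes Flk2, which separated the populations in the sort, and averaged 2.13 ± 0.0967 (SD, n = 3) on young MPP3 arrays against 3.12 ± 0.341 (SD, n = 5) on young MPP4 arrays. Old MPP3 averaged 1.79 ± 0.343 (SD, n = 3) and old MPP4 3.40 ± 0.118 (SD, n = 3). Clustering by the dimmest probe sets, cut at 2 groups by choice, gave 2 array sets that no label describes. Set 2 held young MPP3 replicates 2 and 3 with young MPP4 replicates 3, 4 and 5, and set 1 held all other arrays, including every old one. Xist was above 1 on 4 of the young arrays and on no old array. The young arrays also belong to an earlier deposited series, so that series and age cannot be told apart.

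Promoters of ER chaperone genes are known to carry the ER stress response element (ERSE), which ATF6 and XBP1 bind. RefSeq windows on GRCm38.p6, from 250 bases before to 50 bases after the start of a gene, were at hand for 32 of the 40 members. The letters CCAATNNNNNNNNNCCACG of ERSE were found on either strand in the windows of 8 of these 32 genes (25%), and in 39 of all 32851 windows (0.119%). The related ERSE-II, ATTGGNCCACG, was found in 2 members and in 12 of all windows (0.0365%). Both motifs hold a CCAAT box, in ERSE-II on the opposite strand, and CCACG. The UPRE letters TGACGTGG were found in none of the member windows (0.676% of all windows), and the ATF4 element TGATGNAA in those of Trib3 and Herpud1 (3.97% of all windows). The following stretches end at the base before the start of the gene, are written 5′ to 3′ on the strand of the gene, and belong to 7 members whose values are described further on. Capitals mark ERSE or, in Herpud1, ERSE-II, on either strand. A match of letters describes the sequence and is not evidence of binding.
Hspa5, chr2:34771840-34772089, plus strand: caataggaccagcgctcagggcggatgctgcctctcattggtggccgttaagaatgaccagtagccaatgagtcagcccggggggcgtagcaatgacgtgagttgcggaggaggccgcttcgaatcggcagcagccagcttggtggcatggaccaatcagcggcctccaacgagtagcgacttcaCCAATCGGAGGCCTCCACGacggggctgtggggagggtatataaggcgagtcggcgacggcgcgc
Hsp90b1, chr10:86705445-86705694, minus strand: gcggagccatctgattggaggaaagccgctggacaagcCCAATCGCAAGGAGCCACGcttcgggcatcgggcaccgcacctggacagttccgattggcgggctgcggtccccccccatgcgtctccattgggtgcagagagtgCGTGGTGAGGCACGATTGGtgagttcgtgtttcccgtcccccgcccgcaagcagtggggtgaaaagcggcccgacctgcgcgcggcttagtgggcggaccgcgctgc
Calr, chr8:84846932-84847181, minus strand: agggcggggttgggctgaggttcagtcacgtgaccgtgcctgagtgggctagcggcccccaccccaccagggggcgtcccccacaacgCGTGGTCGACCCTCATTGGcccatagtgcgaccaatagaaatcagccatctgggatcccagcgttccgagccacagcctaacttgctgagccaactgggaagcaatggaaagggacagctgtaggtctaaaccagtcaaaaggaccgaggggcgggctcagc
Creld2, chr15:88819396-88819645, plus strand: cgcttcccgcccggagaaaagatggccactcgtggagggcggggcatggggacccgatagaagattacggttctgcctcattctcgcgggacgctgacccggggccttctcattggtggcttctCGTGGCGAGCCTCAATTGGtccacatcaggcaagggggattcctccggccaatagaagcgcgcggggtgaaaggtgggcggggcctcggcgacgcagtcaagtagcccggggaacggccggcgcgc
Dnajc3, chr14:118937682-118937931, plus strand: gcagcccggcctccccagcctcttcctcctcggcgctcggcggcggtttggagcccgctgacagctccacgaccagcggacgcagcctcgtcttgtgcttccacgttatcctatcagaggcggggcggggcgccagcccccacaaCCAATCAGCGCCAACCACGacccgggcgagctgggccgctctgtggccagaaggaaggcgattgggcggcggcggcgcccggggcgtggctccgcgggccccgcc
Syvn1, chr19:6046326-6046575, plus strand: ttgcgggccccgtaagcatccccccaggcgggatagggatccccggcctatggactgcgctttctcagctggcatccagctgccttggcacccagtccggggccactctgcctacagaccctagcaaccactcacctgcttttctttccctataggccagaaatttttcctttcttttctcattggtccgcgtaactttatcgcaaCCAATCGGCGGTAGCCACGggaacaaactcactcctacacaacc
Herpud1, chr8:94386179-94386428, plus strand: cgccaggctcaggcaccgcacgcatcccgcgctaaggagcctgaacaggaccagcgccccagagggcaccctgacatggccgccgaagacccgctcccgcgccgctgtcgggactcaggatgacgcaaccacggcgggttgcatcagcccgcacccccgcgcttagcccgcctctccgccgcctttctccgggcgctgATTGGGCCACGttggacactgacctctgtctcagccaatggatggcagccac
Hsp90b1 held ERSE at 2 places, on opposite strands. Calr, Creld2 and the downstream match of Hsp90b1 carried it on the strand opposite to the gene. Canx, Pdia6 and Dnajb11, the other matching members, held 1 motif each.

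The comparison of the populations at each age asked how far the myeloid-biased and the lymphoid-biased progenitors differed in this machinery. Most of the 40 members had a lower mean in MPP4 than in MPP3 at both ages, among them most of those of degradation, folding and translocation. The medians of the sensors and of the PERK and ATF4 branch lay between -0.0295 and 0.0713. Of 29 other degradation genes, which are not among the 40, 14 were lower and 15 higher over both ages (median 0.00871). In young mice 27 of the 40 members were lower in MPP4 and 13 higher, with a median difference of -0.0980. In old mice 32 were lower and 8 higher, with a median of -0.244. Over both ages, the degradation factor Edem1, the ligase partner Sel1l, the stress-induced Herpud1, the channel subunit Sec61b and the chaperone Hsp90b1 were called lower in MPP4, with differences from -0.505 to -0.311. Arrays of sorted cells measure the population as a whole, so fewer cells of a kind and less RNA per cell cannot be told apart.

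Within either age alone no member passed the adjusted threshold of 0.05 in limma. In young mice 25 genes did, 13 higher (0.0679% of genes) and 12 lower (0.0626%), and the smallest adjusted p of a member was 0.0636. In old mice limma called 0 genes in either direction (0%), with a smallest adjusted p of 0.203 among the members. At an unadjusted limma p under 0.05, 13 of 40 members (32.5%) were lower in young MPP4, where 5.53% of all genes were lower, and 0 members were higher, where 5.48% of all genes were. In old mice 22 members (55%) were lower against 3.64% of all genes, and 0 were higher against 6.19%. The groups did not overlap, with MPP4 lower, for 13 members in young mice (3.72% of all genes) and 22 in old mice (7.60%). With MPP4 higher they were separate for 0 members at either age (3.74% and 9.03% of all genes). The young and the old comparison share no array, and 11 members stood without overlap in both. The share of all genes that did so at both ages was not counted, so this number has no background beside it. The 22 members under an unadjusted p of 0.05 became 14, 11 and 14 without old MPP4 replicate 1, 2 or 3. The share of all genes was then 2.65%, 2.03% and 2.19%. They became 15 without old MPP3 replicate 1 (4.11%), 17 without old MPP3 replicate 2 (5.59%) and 15 with the replicate number as a block (2.95%).

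When the population difference was averaged over both ages in 1 fit of all 14 arrays, a comparison added after the data had been seen, limma called 5 members lower in MPP4 and none higher. Over all genes it called 67 lower (0.350%) and 121 higher (0.632%). At an unadjusted p under 0.05 this fit had 21 members lower and 0 higher, against 5.95% and 7.31% of all genes. The 5 calls became 15 with the array set as a term, 2 on the arrays with Xist at or under 1 and between 3 and 9 when 1 array was left out. All genes called moved as well, from 188 to 600, 41 and between 79 and 327 in these settings. Sel1l was called in all 25 settings run, Herpud1 in 24, Edem1 in 23, Sec61b in 15 and Hsp90b1 in 10. For 6 members, namely Sel1l, Herpud1, Edem1, Calr, Creld2 and Pdia4, all 8 MPP4 arrays lay below all 6 MPP3 arrays (15.0% of the members and 0.386% of all genes), and for 0 members they lay above (0.465% of all genes). For Calr and Creld2 the nearest arrays of the 2 populations were equal to the digits given.

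**Figure D1:**
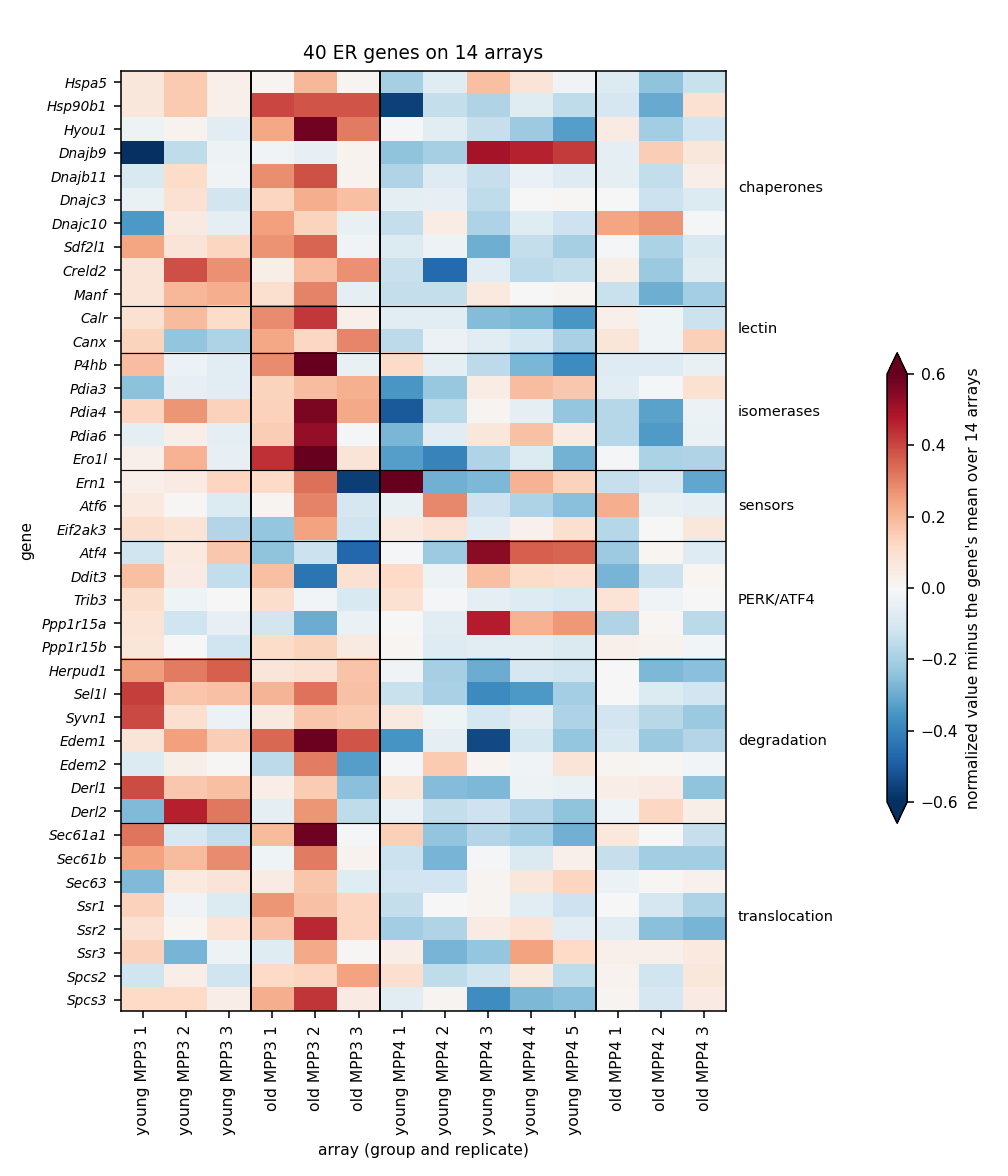
Normalized value of the 40 ER genes (rows, grouped by role) on the 14 arrays (columns, by group and replicate), as the difference from the mean of each gene over all arrays, with a colour scale that ends at 0.6 on either side. Most folding, degradation and translocation genes are on average redder on the MPP3 than on the MPP4 arrays, deepest on old MPP3 replicate 2. Not all are red on every MPP3 array, and Pdia3 is blue on all young MPP3 arrays. Dnajb9, Atf4, Ppp1r15a, Pdia3 and Pdia6 are red on young MPP4 replicates 3 to 5.

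Of the 7 members that serve ER-associated degradation, 6 were lower in MPP4 in young mice (median -0.349) and 5 in old mice (median -0.282), and 3 were called over both ages. Sel1l, the scaffold of the membrane ubiquitin ligase that the degradation route uses, gave 2.06, 1.81 and 1.82 in young MPP3, 1.85, 1.97 and 1.82 in old MPP3, 1.51, 1.45, 1.26, 1.30 and 1.44 in young MPP4 and 1.64, 1.56 and 1.53 in old MPP4. Every MPP4 array was below every MPP3 array. The difference was -0.501 ± 0.0791 (SE) in young mice (adjusted p = 0.0877), -0.303 ± 0.0527 (SE) in old mice and -0.402 ± 0.0528 (SE) over both ages (adjusted p = 0.00563, limma).

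Herpud1, a membrane protein strongly induced by ER stress that helps assemble the degradation complex, gave 1.90, 1.96 and 2.01 in young MPP3, 1.72, 1.74 and 1.82 in old MPP3, 1.63, 1.45, 1.35, 1.55 and 1.53 in young MPP4 and 1.65, 1.38 and 1.40 in old MPP4. Its 6 MPP3 arrays were all higher, with young MPP3 highest. The difference was -0.455 ± 0.0629 (SE) in young mice (adjusted p = 0.0636), -0.282 ± 0.0802 (SE) in old mice and -0.369 ± 0.0521 (SE) over both ages (adjusted p = 0.00856, limma). Edem1, a mannosidase-like protein that picks out misfolded glycoproteins, gave 1.45, 1.62 and 1.52 in young MPP3, 1.72, 1.96 and 1.75 in old MPP3, 1.02, 1.32, 0.831, 1.27 and 1.14 in young MPP4 and 1.28, 1.15 and 1.2 in old MPP4. Old MPP3 were highest and the 2 MPP4 groups overlapped each other. The difference was -0.412 ± 0.112 (SE) in young mice, -0.597 ± 0.0750 (SE) in old mice (adjusted p = 0.203) and -0.505 ± 0.0753 (SE) over both ages (adjusted p = 0.0113, limma).

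Syvn1, the ubiquitin ligase that SEL1L holds, gave 1.78, 1.48 and 1.35 in young MPP3, 1.44, 1.55 and 1.54 in old MPP3, 1.44, 1.36, 1.28, 1.32 and 1.2 in young MPP4 and 1.27, 1.22 and 1.16 in old MPP4. The groups were separate in old mice, at -0.293 ± 0.0436 (SE) (adjusted p = 0.222, limma), and overlapped in young mice, at -0.216 ± 0.0967 (SE). Derl1, a membrane rhomboid-like protein of the same route, gave 2.10, 1.87 and 1.89 in young MPP3, 1.75, 1.86 and 1.46 in old MPP3, 1.78, 1.45, 1.44, 1.68 and 1.67 in young MPP4 and 1.75, 1.76 and 1.47 in old MPP4. It was lower without overlap in young MPP4, at -0.349 ± 0.0967 (SE), but not in old mice, at -0.0287 ± 0.133 (SE). Derl2, its relative, gave 1.26, 1.99 and 1.84 in young MPP3, 1.47, 1.79 and 1.37 in old MPP3, 1.49, 1.38, 1.40, 1.35 and 1.28 in young MPP4 and 1.5, 1.65 and 1.56 in old MPP4. Young MPP3 replicate 1 was the lowest of all arrays for Derl2 and the other 2 young MPP3 arrays the highest. The difference in young mice was -0.317 ± 0.153 (SE) with that array and -0.536 ± 0.0622 (SE) without it (adjusted p = 0.0364, limma). Its direction turned by array set, at 0.176 within set 1 and -0.572 within set 2. In old mice Derl2 averaged 1.54 ± 0.219 in MPP3 and 1.57 ± 0.0763 in MPP4 (SD, n = 3 each). Edem2, a mannosidase of the EDEM family, differed by 0.0596 ± 0.0481 (SE) and 0.0619 ± 0.165 (SE).

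The chaperones of the lumen and their cochaperones numbered 10, of which 8 were lower in MPP4 in each age, with medians of -0.115 in young and -0.271 in old mice. Hsp90b1 (GRP94), the ER member of the HSP90 family, gave 4.05, 4.14 and 4.01 in young MPP3, 4.38, 4.36 and 4.36 in old MPP3, 3.42, 3.84, 3.80, 3.91 and 3.83 in young MPP4 and 3.88, 3.68 and 4.07 in old MPP4. Old MPP3 were highest and tightly grouped, and young MPP4 replicate 1 was lowest. The difference was -0.307 ± 0.109 (SE) in young mice, -0.487 ± 0.0995 (SE) in old mice and -0.397 ± 0.0797 (SE) over both ages (adjusted p = 0.0448, limma). Hspa5 (BiP), the chief chaperone and the protein that keeps the sensors inactive, overlapped between the young populations, at -0.0913 ± 0.0846 (SE), and did not overlap in old mice, at -0.230 ± 0.0691 (SE). Its adjusted p was 0.782 and 0.399 (limma).

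Hyou1 (GRP170), which recharges BiP with nucleotide, gave 1.62, 1.67 and 1.58 in young MPP3, 1.88, 2.23 and 1.96 in old MPP3, 1.64, 1.58, 1.51, 1.43 and 1.32 in young MPP4 and 1.70, 1.44 and 1.53 in old MPP4. Old MPP3 stood above all other arrays, and the difference was -0.468 ± 0.114 (SE) in old mice but -0.125 ± 0.0728 (SE) in young mice. Dnajc3 (p58IPK), a BiP cochaperone that also restrains PERK, gave 2.84, 2.97 and 2.77 in young MPP3, 3.01, 3.10 and 3.06 in old MPP3, 2.82, 2.83, 2.73, 2.88 and 2.89 in young MPP4 and 2.88, 2.75 and 2.80 in old MPP4. The old populations were separate, at -0.247 ± 0.0453 (SE), and the young ones overlapped, at -0.0309 ± 0.0542 (SE).

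Creld2, a stress-induced disulfide isomerase-like protein, gave 1.78, 2.09 and 1.98 in young MPP3, 1.74, 1.89 and 1.98 in old MPP3, 1.57, 1.24, 1.64, 1.55 and 1.56 in young MPP4 and 1.74, 1.48 and 1.63 in old MPP4. It was lower in MPP4 without overlap at both ages, at -0.436 ± 0.106 (SE) and -0.254 ± 0.0919 (SE), and young MPP4 replicate 2 was the lowest array. Manf, a secreted stress-induced factor that binds BiP, gave 2.44, 2.56 and 2.58 in young MPP3, 2.46, 2.66 and 2.31 in old MPP3, 2.22, 2.22, 2.42, 2.36 and 2.38 in young MPP4 and 2.23, 2.07 and 2.16 in old MPP4. It was also separate at both ages, at -0.207 ± 0.0601 (SE) and -0.318 ± 0.0988 (SE), although young MPP4 lay above old MPP3 replicate 3 on 3 arrays. Sdf2l1, a cofactor of the BiP cochaperones, gave 1.77, 1.61 and 1.66 in young MPP3, 1.80, 1.88 and 1.51 in old MPP3, 1.45, 1.5, 1.24, 1.39 and 1.33 in young MPP4 and 1.52, 1.34 and 1.44 in old MPP4. The young populations were separate, at -0.301 ± 0.0671 (SE), and in old mice only 1 old MPP4 array reached the lowest MPP3 array, with a difference of -0.293 ± 0.109 (SE). Dnajb11, a BiP cochaperone for newly made chains, differed by -0.105 ± 0.0502 (SE) and -0.287 ± 0.105 (SE), and Dnajc10, a reductase that works with the degradation factors, by 0.0180 ± 0.0946 (SE) and 0.0530 ± 0.106 (SE).

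Dnajb9 (ERdj4), a cochaperone that keeps IRE1 inactive, went the other way and was looked at after its values had been seen. It gave 1.29, 2.01 and 2.13 in young MPP3, 2.14, 2.11 and 2.18 in old MPP3, 1.92, 1.96, 2.66, 2.62 and 2.58 in young MPP4 and 2.10, 2.31 and 2.23 in old MPP4. The 3 young MPP4 arrays of set 2 were the highest of all and young MPP3 replicate 1 the lowest, and the young groups overlapped across sets but not within them. The young difference was 0.541 ± 0.265 (SE) without regard to the sets, 0.649 within set 1 and 0.555 within set 2, and 0.589 ± 0.0382 (SE) with the set as a term (adjusted p = 0.00553, limma). In old mice the populations overlapped, at 0.0680 ± 0.0593 (SE).

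The 2 lectin chaperones hold glycoproteins during folding. Calr, the soluble one, gave 3.42, 3.52 and 3.44 in young MPP3, 3.61, 3.75 and 3.36 in old MPP3, 3.26, 3.26, 3.07, 3.06 and 2.98 in young MPP4 and 3.36, 3.30 and 3.20 in old MPP4. It was lower in MPP4 at both ages, at -0.334 ± 0.0736 (SE) and -0.290 ± 0.106 (SE), and missed the threshold over both ages, at -0.312 ± 0.0653 (SE) (adjusted p = 0.0515, limma). Canx, the membrane-bound one, gave 3.90, 3.53 and 3.58 in young MPP3, 4.0, 3.89 and 4.06 in old MPP3, 3.61, 3.73, 3.70, 3.66 and 3.57 in young MPP4 and 3.84, 3.74 and 3.91 in old MPP4. Its values overlapped between the populations at both ages, with -0.0172 ± 0.0856 (SE) in young and -0.153 ± 0.0636 (SE) in old mice.

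Disulfide bonds are set by isomerases that the oxidase Ero1l recharges. In old mice all 5 of these members were lower in MPP4 without overlap, with a median of -0.406, and in young mice 3 were lower and 2 higher, with a median of -0.177. Pdia4 (ERp72) gave 2.25, 2.39 and 2.26 in young MPP3, 2.26, 2.69 and 2.35 in old MPP3, 1.62, 1.96, 2.14, 2.07 and 1.89 in young MPP4 and 1.95, 1.80 and 2.09 in old MPP4. It was separate at both ages, at -0.364 ± 0.114 (SE) and -0.486 ± 0.137 (SE). Ero1l gave 1.85, 2.03 and 1.77 in young MPP3, 2.26, 2.78 and 1.90 in old MPP3, 1.49, 1.42, 1.64, 1.74 and 1.54 in young MPP4 and 1.81, 1.63 and 1.64 in old MPP4. It was separate at both ages too, at -0.315 ± 0.0865 (SE) and -0.616 ± 0.230 (SE), with old MPP3 replicate 2 the highest array. Pdia3 (ERp57), the isomerase that partners the lectin chaperones, gave 2.80, 3.00 and 2.98 in young MPP3, 3.18, 3.23 and 3.26 in old MPP3, 2.70, 2.82, 3.09, 3.23 and 3.21 in young MPP4 and 2.98, 3.04 and 3.14 in old MPP4. It was lower in old MPP4, at -0.168 ± 0.0470 (SE), but in young mice the MPP4 arrays of set 2 were among the highest, and the difference was 0.0820 ± 0.136 (SE). P4hb, the classical isomerase, differed by -0.177 ± 0.117 (SE) and -0.352 ± 0.169 (SE), and Pdia6, which also acts on IRE1, by 0.00841 ± 0.0958 (SE) and -0.406 ± 0.158 (SE).

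The channel, its translocon-associated proteins and the signal peptidase were measured by 8 members, of which 5 were lower in MPP4 in young mice (median -0.102) and all 8 in old mice (median -0.262). Sec61b, a small subunit of the channel, gave 2.78, 2.73 and 2.82 in young MPP3, 2.51, 2.85 and 2.56 in old MPP3, 2.41, 2.26, 2.53, 2.45 and 2.57 in young MPP4 and 2.40, 2.33 and 2.33 in old MPP4. The populations were separate at each age, although old MPP3 replicates 1 and 3 lay below the highest young MPP4 array. The difference was -0.336 ± 0.0698 (SE) in young mice, -0.286 ± 0.0963 (SE) in old mice and -0.311 ± 0.0604 (SE) over both ages (adjusted p = 0.0408, limma). Ssr1, a translocon-associated protein, gave 3.07, 2.91 and 2.85 in young MPP3, 3.20, 3.11 and 3.06 in old MPP3, 2.79, 2.93, 2.95, 2.87 and 2.81 in young MPP4 and 2.93, 2.83 and 2.75 in old MPP4. It was separate in old mice, at -0.287 ± 0.0591 (SE), and overlapped in young mice, at -0.0758 ± 0.0597 (SE).

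Ssr2, of the same complex, gave 2.84, 2.76 and 2.83 in young MPP3, 2.92, 3.20 and 2.88 in old MPP3, 2.54, 2.57, 2.80, 2.83 and 2.68 in young MPP4 and 2.68, 2.5 and 2.47 in old MPP4. The old difference was -0.449 ± 0.107 (SE) and the young one -0.129 ± 0.0742 (SE). Spcs2, a signal peptidase subunit, gave 2.67, 2.83 and 2.67 in young MPP3, 2.91, 2.92 and 3.03 in old MPP3, 2.89, 2.64, 2.67, 2.85 and 2.64 in young MPP4 and 2.81, 2.67 and 2.86 in old MPP4. The populations were separate in old mice only, at -0.175 ± 0.0609 (SE), against 0.0168 ± 0.0764 (SE) in young mice. Spcs3, its partner, was separate at both ages, at -0.276 ± 0.0900 (SE) and -0.242 ± 0.104 (SE). The channel pore Sec61a1 (-0.180 ± 0.136 (SE) and -0.281 ± 0.160 (SE)), the channel partner Sec63 (0.0414 ± 0.0938 (SE) and -0.0489 ± 0.0655 (SE)) and Ssr3 (0.0381 ± 0.146 (SE) and -0.0192 ± 0.0787 (SE)) overlapped at both ages.

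**Figure D2:**
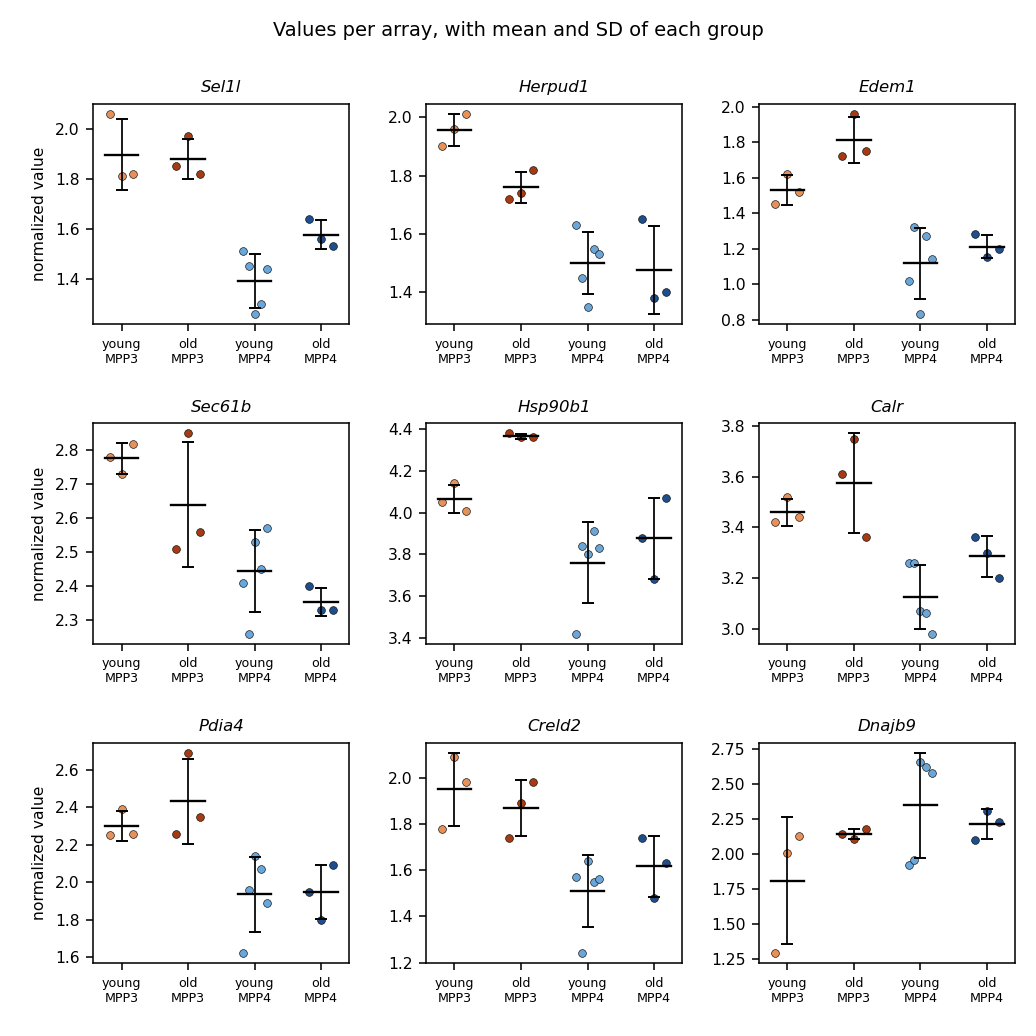
Normalized value of 9 ER genes on every array (points), by group, with the mean (bar) and SD (whiskers) of 3 young MPP3, 3 old MPP3, 5 young MPP4 and 3 old MPP4 arrays, and an axis that does not start at 0. Sel1l, Herpud1, Edem1, Pdia4, Calr and Creld2 sit lower on all MPP4 arrays, and Dnajb9 is the exception, with young MPP4 between 1.92 and 2.66.

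The 3 sensors had medians of 0.0228 in young and -0.0295 in old mice. Ern1 differed by 0.0228 ± 0.213 (SE) and -0.140 ± 0.241 (SE), with values from 0.925 on old MPP3 replicate 3 to 2.15 on young MPP4 replicate 1. Atf6 differed by -0.0568 ± 0.117 (SE) and -0.0295 ± 0.128 (SE), and Eif2ak3 by 0.0367 ± 0.0711 (SE) and 0.00132 ± 0.141 (SE). The limma confidence interval of the Eif2ak3 difference ran from -0.130 to 0.203 in young mice and from -0.355 to 0.357 in old mice.

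The 5 members of the PERK and ATF4 branch had medians of 0.0713 in young and 0.0220 in old mice. Atf4, the transcription factor that this branch translates, gave 2.02, 2.20 and 2.30 in young MPP3, 1.90, 2.01 and 1.67 in old MPP3, 2.13, 1.92, 2.68, 2.5 and 2.49 in young MPP4 and 1.92, 2.15 and 2.06 in old MPP4. The populations overlapped at both ages, and the difference was 0.174 ± 0.175 (SE) and 0.183 ± 0.108 (SE). It was 0.00789 within set 1 and 0.310 within set 2 of the young arrays. Ppp1r15a (GADD34), which ends the PERK signal, differed by 0.401 within set 2 and -0.109 within set 1 of the young arrays. Ddit3 (CHOP), the apoptosis-linked factor, differed by 0.0713 ± 0.0779 (SE) and -0.0778 ± 0.184 (SE), and Trib3, its inhibitor, by -0.0516 ± 0.0503 (SE) and 0.0220 ± 0.0586 (SE). Ppp1r15b, the constitutive relative of Ppp1r15a, was lower without overlap in old MPP4 by a small amount, at -0.0823 ± 0.0308 (SE), and differed by -0.0430 ± 0.0449 (SE) in young mice.

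Within array set 1 the median difference of all 40 members between young MPP4 (2 arrays) and young MPP3 (1 array) was -0.144, with 31 members lower, and within set 2 (3 arrays against 2) it was -0.117, with 29 lower. The 5 members called over both ages were lower in MPP4 in each set, with differences of -0.575 and -0.479 for Sel1l, -0.360 and -0.509 for Herpud1, -0.277 and -0.489 for Edem1, -0.446 and -0.262 for Sec61b, and -0.417 and -0.230 for Hsp90b1. The 10 members with ERSE or ERSE-II had a median difference of -0.161 in young and -0.284 in old mice, and 9 and 10 of them were lower in MPP4. The 22 members whose windows held neither had medians of 0.0174 and -0.109, with 10 and 14 lower. Sel1l, Edem1 and Sec61b were among the latter. So were Ern1, Eif2ak3, Atf4, Ddit3, Trib3 and Ppp1r15a of the sensors and the PERK and ATF4 branch, whereas the 10 held no member of these roles. Motif and role were thus not separated, and the part of the motif in the population difference was not tested. The 8 members without a window (Hyou1, Manf, Derl1, Sec61a1, Spcs3, Atf6, Ssr2 and Ppp1r15b) had medians of -0.154 and -0.262.

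**Figure D3:**
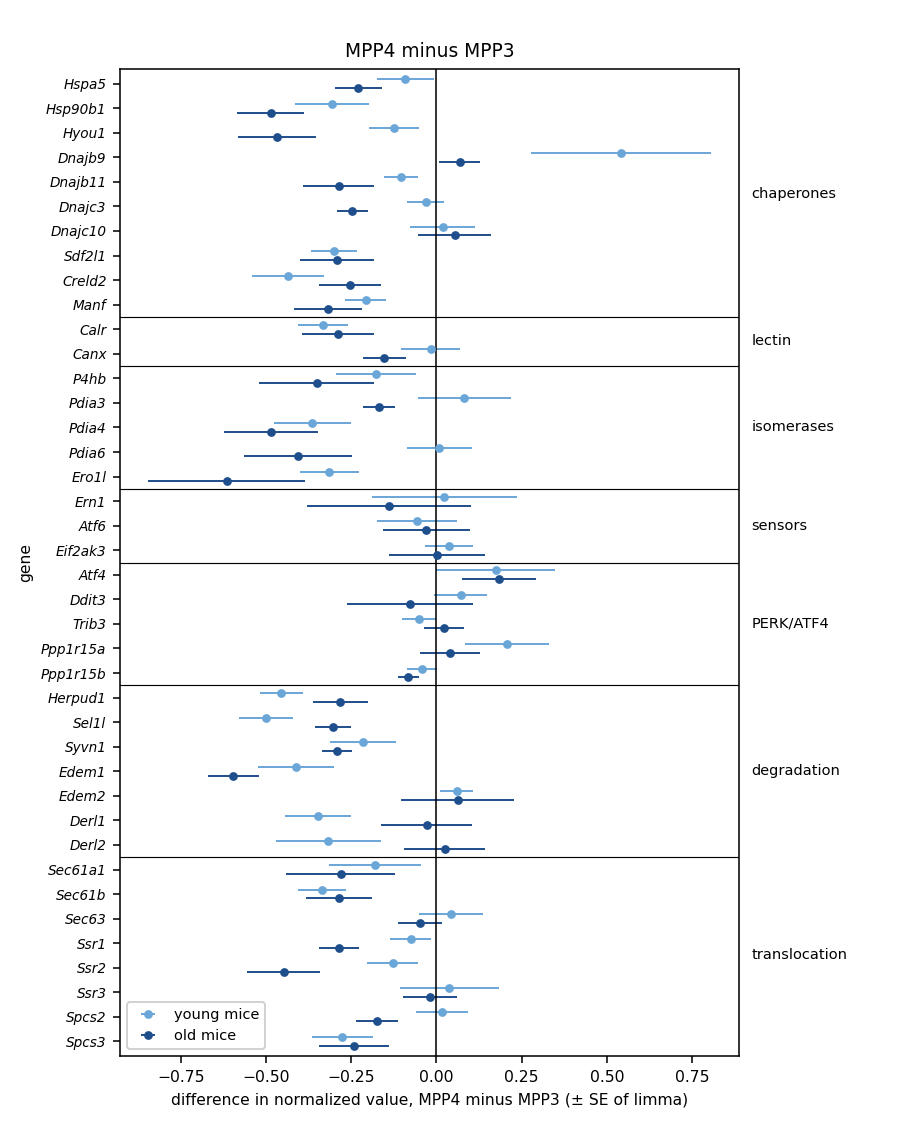
Difference in normalized value between MPP4 and MPP3 for each of the 40 ER genes (rows, by role), in young mice (light) and old mice (dark), with the SE of limma. Points left of 0 are lower in MPP4, which holds for 27 genes in young and 32 in old mice, and the sensors and the PERK and ATF4 branch scatter around 0.

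Another 181 genes of the ER pathway were listed by role, and 170 were measured. In the fit over both ages 5 of them were called lower in MPP4 and 1 higher, and 111 of 170 had a lower mean, with a median of -0.0454. These are 2.94% and 0.588% of the 170, beside 0.350% and 0.632% of all genes. Xbp1, the factor that IRE1 activates, differed by -0.522 ± 0.0803 (SE) (adjusted p = 0.0119, limma), and its arrays ran from 1.68 to 2.17 in MPP3 and from 1.22 to 1.55 in MPP4. Txndc5, a disulfide isomerase abundant in plasma cells, differed by -0.601 ± 0.0539 (SE) (adjusted p = 0.000503, limma). Derl3, the stress-induced relative of Derl1, differed by -0.219 ± 0.0283 (SE) (adjusted p = 0.00547, limma), and Mzb1, a GRP94 cofactor of B lineage cells, by -0.444 ± 0.0831 (SE) (adjusted p = 0.0337, limma). Krtcap2, a subunit of the sugar transferase, differed by -0.238 ± 0.0486 (SE) (adjusted p = 0.0470, limma). Mbtps1, the protease that cuts ATF6, was the one called higher, at 0.274 ± 0.0504 (SE) (adjusted p = 0.0309, limma). In young mice alone Mzb1, Txndc5 and Derl3 were called lower, and in old mice 0 of the 170 were called, with 18 lower (10.6%) and 9 higher (5.29%) at an unadjusted p under 0.05, beside 3.64% and 6.19% of all genes. The median difference was -0.0281 in young and -0.0508 in old mice. By role, N-glycosylation genes were lower for 18 of 23 over both ages, ER exit and retrieval genes for 23 of 31, translocation and signal recognition genes for 12 of 16, folding enzymes for 18 of 30, stress sensing genes for 9 of 15, other degradation genes for 14 of 29 and ATF4 targets for 17 of 26.

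Markers of other cell types moved with the population difference. Of 9 plasma cell markers measured, 9 were lower in MPP4 at both ages and 4 were called in young mice, and the sum of their values ran from 10.4 to 12.4 in young MPP3, 7.56 to 11.5 in old MPP3, 4.94 to 5.52 in young MPP4 and 4.83 to 5.25 in old MPP4. Jchain, the joining chain of secreted immunoglobulin, averaged 3.12 ± 0.188 (SD, n = 3) on young MPP3 arrays against 0.0632 ± 0.0415 (SD, n = 5) on young MPP4 arrays. Old MPP3 averaged 2.24 ± 0.734 (SD, n = 3) for it and old MPP4 0.0559 ± 0.00680 (SD, n = 3). The defining surface marker Sdc1 averaged 0.856 ± 0.172 (SD, n = 3) on young MPP3 arrays against 0.816 ± 0.0851 (SD, n = 5) on young MPP4 arrays, and 0.769 ± 0.0852 (SD, n = 3) against 0.640 ± 0.0368 (SD, n = 3) in old mice. Irf4 and Prdm1, plasma cell factors, averaged 0.738 ± 0.301 and 0.436 ± 0.0953 (SD, n = 3) on young MPP3 arrays, and 0.190 ± 0.0102 and 0.222 ± 0.0389 (SD, n = 5) on young MPP4 arrays. In old mice Irf4 averaged 0.493 ± 0.135 against 0.244 ± 0.0382 and Prdm1 0.381 ± 0.116 against 0.215 ± 0.0309 (SD, n = 3 each). None of these named markers was listed at 0. Xbp1, Mzb1 and Derl3 belong to both this list and the ER pathway lists. Of 9 granulocyte and monocyte progenitor markers, 7 were lower in MPP4 in young mice and 9 in old mice, and their sum ran from 13.4 to 19.0 in young MPP3, 17.7 to 27.7 in old MPP3, 9.65 to 11.1 in young MPP4 and 11.1 to 11.5 in old MPP4. All 7 mast cell and basophil markers were lower in MPP4 at both ages. Their sum ran from 4.73 to 7.11 and 5.77 to 11.7 in young and old MPP3, and from 3.00 to 4.01 and 3.80 to 4.16 in young and old MPP4. B cell markers were lower in MPP4 for 7 of 7 in young and 6 of 7 in old mice (medians -0.325 and -0.117), megakaryocyte markers for 4 of 4 and 3 of 4, and erythroid markers for 3 of 4 and 4 of 4. Lymphoid priming genes went the other way, with 6 of 9 higher in young and 9 of 9 in old MPP4 (medians 0.313 and 0.398), and 4 of them were called higher over both ages. The part of these cell types in the ER difference was not tested.

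**Figure D4:**
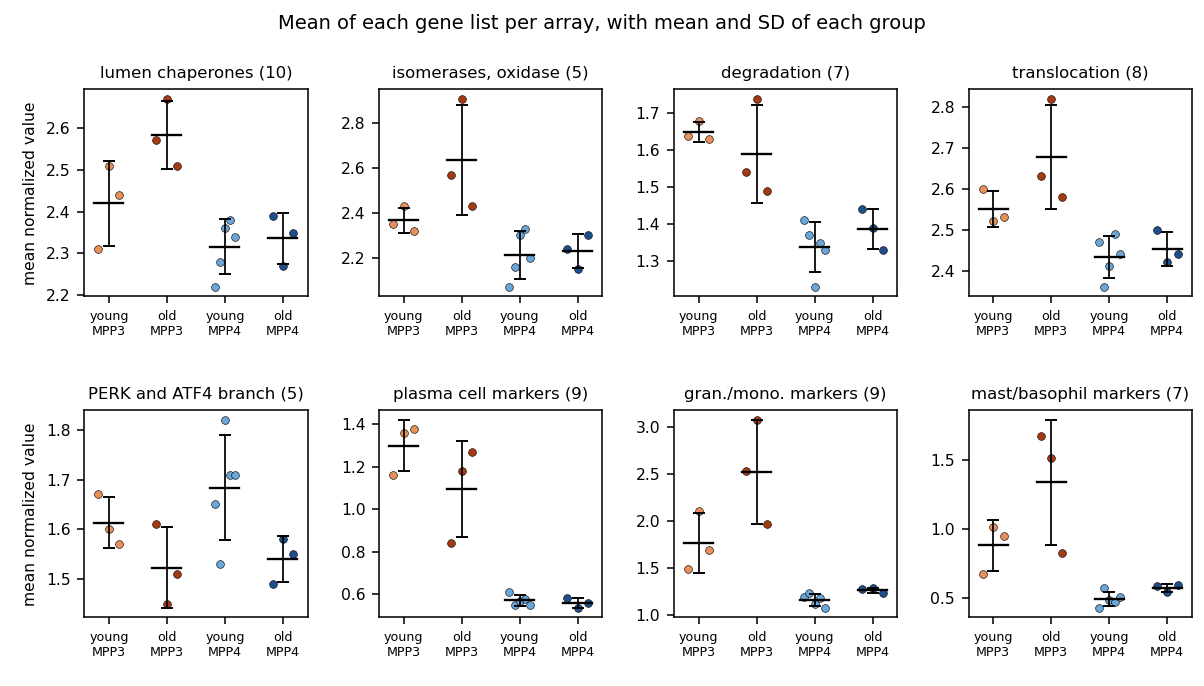
Mean normalized value of gene lists on every array (points), by group, with the mean (bar) and SD (whiskers) over the arrays, and the number of genes of each list in brackets. Degradation, chaperone, isomerase and translocation genes are highest in MPP3, as are the plasma cell, granulocyte and monocyte, and mast cell and basophil markers, of which the granulocyte and monocyte markers reach 3.08 on old MPP3 replicate 2.

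Old and young mice were compared within each population. In MPP3 the mean was higher in old mice for 7 of 10 lumen chaperones, 7 of 8 translocation genes and all 5 isomerases and oxidase, and lower for 6 of 7 degradation genes. Limma called 0 of 19155 genes in either direction (0%), with a smallest adjusted p of 0.471. Of the 40 members 24 were higher and 16 lower, with a median difference of 0.112, which became 0.0306 without old MPP3 replicate 2. At an unadjusted p under 0.05, 8 members (20.0%) were higher against 3.44% of all genes, and 2 were lower (5.00%) against 4.75%. The 8 became 3 with normal scores of ranks (3.49% of all genes), 5 without young MPP3 replicate 3 (1.95%) and 15 with array weights (13.9%), and the 2 became 5 without old MPP3 replicate 2 (4.20%) or with array weights (13.5%). In the other settings run the 8 ranged from 6 to 11 and the 2 from 1 to 2. The shares of all genes were then 2.19% to 7.66% and 2.98% to 8.25%. The groups were separate with old mice higher for 7 members (6.14% of all genes) and lower for 3 (8.04%). With the 1 young MPP3 array of set 1 against the 3 old ones the median was 0.0675. There the degradation genes Edem2 (0.0198) and Derl2 (0.285) turned to higher, and the translocation genes Sec61a1 (-0.0641) and Ssr3 (-0.0798) to lower. Of the lumen chaperones Hspa5 (0.0105), Creld2 (0.0927) and Manf (0.0305) turned to higher and Sdf2l1 (-0.0435) to lower. The isomerases and oxidase kept their direction.

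Hsp90b1 had the largest statistic, with 4.05, 4.14 and 4.01 in young and 4.38, 4.36 and 4.36 in old MPP3, a difference of 0.297 ± 0.0410 (SE) (adjusted p = 0.471, limma). Hyou1 was higher in all 3 old arrays by 0.404 ± 0.0970 (SE), Pdia3 by 0.293 ± 0.0635 (SE), Spcs2 by 0.233 ± 0.0610 (SE) and Dnajc3 by 0.195 ± 0.0608 (SE). The isomerases and the oxidase had a median of 0.259, with the largest value for Ero1l, at 0.429 ± 0.233 (SE), whose groups overlapped. Both lectin chaperones were also higher, Canx by 0.313 ± 0.111 (SE) and Calr by 0.114 ± 0.104 (SE). The degradation members had a median of -0.0457, among them Herpud1, lower on all 3 old arrays at -0.197 ± 0.0441 (SE), and Derl1, also without overlap, at -0.263 ± 0.122 (SE). Edem1 was the exception and higher on all 3 old arrays, at 0.283 ± 0.0813 (SE). Atf4 was lower on all 3 old arrays, at -0.310 ± 0.115 (SE), and BiP (Hspa5) overlapped, at -0.00673 ± 0.0676 (SE). Adjusted p-values of these members lay between 0.471 and 0.991 (limma). Against the 1 young array of set 1 alone, the difference was 0.0825 for Canx, -0.160 for Atf4, -0.139 for Herpud1 and 0.0105 for Hspa5. It was 0.318 for Hsp90b1, 0.407 for Hyou1, 0.422 for Pdia3, 0.289 for Spcs2 and 0.221 for Dnajc3. Ero1l differed by 0.461, Calr by 0.158, Edem1 by 0.365 and Derl1 by -0.412. Of 9 granulocyte and monocyte markers, 9 were higher in old MPP3, with a median of 0.845, and old MPP3 replicate 2 was highest in that list and in the mean of the members (2.40, against 2.25 and 2.17 on the other old arrays). Mast cell and basophil markers were higher for 6 of 7 (median 0.430) and cycling genes for 5 of 5 (median 0.201). Lymphoid priming genes were lower for 8 of 9 (median -0.237), plasma cell markers for 7 of 9 (median -0.0998), B cell markers for 6 of 7 (median -0.112), megakaryocyte markers for 4 of 4 (median -0.0889) and immediate early genes for 6 of 9 (median -0.125). The part of these lists in the age difference of the ER genes was not tested.

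In MPP4, 24 members were higher and 16 lower in old mice, with a median of 0.0433, and the difference was farther from 0 than in MPP3 for 16 members and nearer for 24. The PERK and ATF4 branch had a median of -0.230, against -0.0812 in MPP3. On set 1 alone its members differed in MPP4 by 0.0147 (Atf4), -0.180 (Ddit3), -0.0213 (Trib3), -0.0800 (Ppp1r15a) and 0.0477 (Ppp1r15b). In MPP3, against the 1 young array of set 1, the values in that order were -0.160, -0.238, -0.104, -0.228 and 0.0248. The larger drop in MPP4 was thus not kept within set 1. Limma called 0 genes (0%), with a smallest adjusted p of 0.0585 over all genes and 0.376 among the members. At an unadjusted p under 0.05, 5 members were higher and 2 lower (12.5% and 5.00%), against 4.50% and 5.27% of all genes. The 5 became 3 with normal scores of ranks (4.58% of all genes) and with the replicate number as a block (3.91%). They became 3 too in 1 fit of all groups (3.41%) and without old MPP4 replicate 1 (3.41%). When young MPP4 replicate 1 was left out there were 7 higher and 5 lower, when replicate 2 of that group was left out 6 and 5, and with array weights 9 and 9 (13.9% and 14.6% of all genes). The 2 lower became 0 on the arrays with Xist at or under 1 (3.63% of all genes). They became 1 in 1 fit of all groups (4.10%) and on set 1 alone (6.19%). So they did without young MPP4 replicate 3 (3.88%) or 4 (3.80%) and without old MPP4 replicate 3 (3.46%). The groups were separate with old mice higher for 3 members (3.28% of all genes) and lower for 0 (4.01%). The 3 were Derl2, at 0.188 ± 0.0516 (SE), Canx, at 0.177 ± 0.0503 (SE), and Sel1l, at 0.185 ± 0.0622 (SE). The other 2 higher members, Dnajc10 at 0.264 ± 0.0752 (SE) and Ppp1r15b at 0.0711 ± 0.0268 (SE), and the 2 lower ones, Manf at -0.164 ± 0.0610 (SE) and Ddit3 at -0.230 ± 0.0702 (SE), overlapped between the ages. On the arrays of set 1 alone, 2 young against 3 old, the median was 0.0148. Ppp1r15a differed by -0.288 ± 0.123 (SE) and Atf4 by -0.302 ± 0.173 (SE), and the highest young MPP4 values of both lay on the set 2 arrays. On set 1 alone the difference was -0.0800 for Ppp1r15a and turned to 0.0147 for Atf4, and it was -0.180 for Ddit3, -0.0636 for Manf, 0.0979 for Sel1l, 0.133 for Derl2, 0.161 for Canx and 0.218 for Dnajc10. Of the marker lists, cycling genes were higher in old MPP4 for 5 of 5 (median 0.242), with sums of 8.52 to 9.83 in young and 9.59 to 10.4 in old MPP4. Lymphoid priming genes were higher for 8 of 9 (median 0.139, sums of 14.6 to 18.5 and 16.4 to 18.8), and immediate early genes were lower for 8 of 9 (median -0.118, sums of 18 to 22.7 and 18.2 to 19.2). Erythroid markers were lower for 4 of 4 (median -0.0512). The part of these lists in the age difference was not tested.

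**Figure D5:**
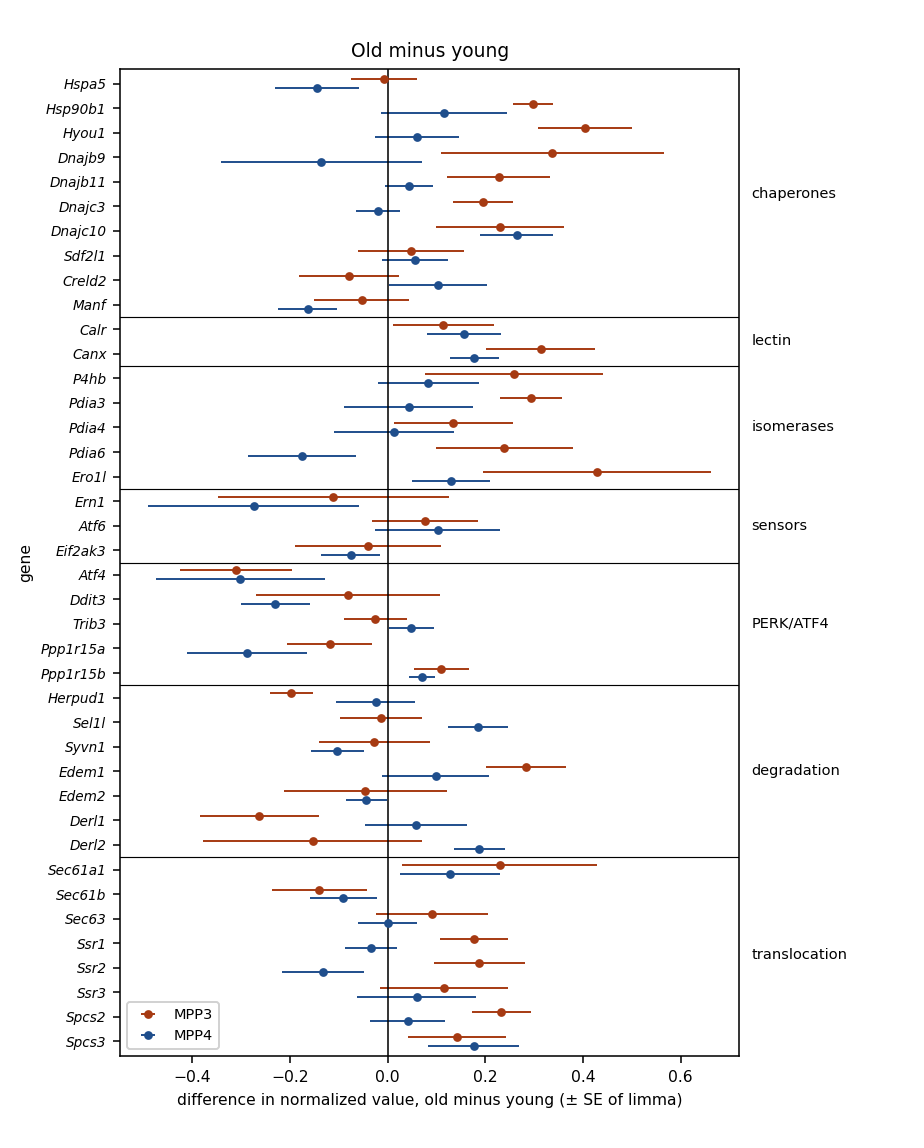
Difference in normalized value between old and young mice for each of the 40 ER genes (rows, by role), in MPP3 (red) and MPP4 (blue), with the SE of limma. In MPP3 Hsp90b1, Hyou1, Pdia3, Spcs2, Edem1 and Dnajc3 lie to the right of 0 by more than 3 SE and Herpud1 to the left. In MPP4 Derl2, Canx and Dnajc10 do so to the right and Ddit3 to the left. Limma called 0 genes for age in either population. For 16 of the 40 genes the MPP4 point lies farther from 0 than the MPP3 point.

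The difference between the age differences of the populations was tested in 1 fit of all groups, as the age difference in MPP4 minus that in MPP3. The age comparisons and the population comparisons share their groups, so their values are set side by side only. Limma called 0 genes (0%) and 0 members, with a smallest adjusted p of 0.719 among the members. At an unadjusted p under 0.05, 5 members were lower (12.5%) against 2.83% of all genes and 0 were higher against 3.44%. The 5 became 1 without old MPP4 replicate 2 (2.03% of all genes) and 2 with normal scores of ranks (2.88%). They became 2 without young MPP3 replicate 3 (1.97%) or young MPP4 replicate 3 (2.46%). Without old MPP3 replicate 2 there were 2 lower and 2 higher (3.58% and 3.71%). With the replicate number as a block there were 2 and 1 (2.76% and 3.00%), as without old MPP4 replicate 3 (2.29% and 2.77%). The lower members were 3 without young MPP3 replicate 2 (2.08%), old MPP3 replicate 1 (3.27%), young MPP4 replicate 2 (3.21%) or young MPP4 replicate 4 (2.36%). With array weights 11 were lower and 4 higher, against 11.2% and 10.0% of all genes. The 5 lower members of the fit of all groups were Dnajc3 (-0.216 ± 0.0757 (SE)), Hyou1 (-0.343 ± 0.135 (SE)), Ssr2 (-0.320 ± 0.132 (SE)), Ssr1 (-0.212 ± 0.0886 (SE)) and Pdia6 (-0.414 ± 0.184 (SE)). Their age differences in MPP3 were 0.195, 0.404, 0.188, 0.177 and 0.239, and in MPP4 -0.0205, 0.0607, -0.132, -0.0344 and -0.175. The median over the 40 members was -0.106, and -0.0133 without old MPP3 replicate 2.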

How the data were processed

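RNA of sorted bone marrow progenitors was amplified with a linear kit and hybridized to 14 arrays. The authors normalized the data with RMA (version not given in the sources used here) and then by quantiles to an exponential reference with lambda = 1, and the deposited score was used as given. It reflects rank, so folds cannot be had. The number of arrays limits the precision.

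Of 22115 probe sets, 744 with several symbols and 2135 without an entry in the platform annotation were left out. The brightest probe set stood for each of 76 genes that had more than 1, which gave 19155 genes. No dim genes were removed.

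Fits used limma 3.58.1 in R 4.3.3 (lmFit, eBayes), two-sided, on the arrays of the groups compared. p-values were adjusted by Benjamini-Hochberg across the 19155 genes and called under 0.05. The study's methods used SAM, which was not run here. The scripts were tested on simulated data. p-values measure the spread between these arrays. In each comparison the members given with every array were those called, then, up to 10 in all, those with unadjusted p under 0.05 and groups without overlap, by moderated t. Dnajb9 was added after its values were seen. The members and lists were chosen with earlier results of these data known. Promoter letters came from RefSeq (GRCm38.p6) and were searched with Python 3.11.15.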

Additional observations from a re-analysis of the deposited data

Results flagged for a closer look

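Among the 40 members, 4 had 1 array of young MPP4 that lay far from the other 4, where chance marks about 1 in 20 such groups. For Hsp90b1, replicate 1 was at 3.42 and the others at 3.80 to 3.91, and its gap took up 0.769 of the range. For Creld2, replicate 2 was at 1.24 and the others at 1.55 to 1.64, a gap of 0.781 of the range. For Ppp1r15b, replicate 1 was at 1.33 and the others at 1.23 to 1.25, a gap of 0.775 of the range. For Sec61a1, replicate 1 was at 2.16 and the others at 1.73 to 1.84, a gap of 0.749 of the range. Of these 4 arrays, 3 were young MPP4 replicate 1, and none belonged to array set 2.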

How the results depend on the processing

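Of 36 differences of named members, 617 values under other settings kept their direction, of which 573 also kept their side of the threshold, 28 lost a call and 16 gained one. The fit over both ages and its alternatives were chosen after seeing the data. In young mice the 25 genes called between the populations became 59 without the dimmest genes, 48 with a variance trend and robust estimation, 1808 with array weights, 52 with normal scores of ranks, 271 with the array set as a term and 0 on arrays with Xist at or under 1. The members called were 2 in 1 fit of all groups, 2 without the dimmest genes, 9 with array weights and 5 with the array set. In old mice the genes called became 27 in 1 fit of all groups, 1 without the dimmest genes and 8 with normal scores. Over both ages the 188 genes became 285 without the dimmest genes, 2055 with array weights, 600 with the array set and 41 on the low Xist arrays, and the 5 members became 13, 19, 15 and 2, and 8 with normal scores. For age, 1 fit of all groups called 9 genes in MPP3 and 1 in MPP4, set 1 alone 1 in MPP3, and array weights 304 in MPP4, where the members' median turned to -0.00890. For the difference between the age differences, a variance trend called 2 genes and array weights 574 genes and 2 members. The causes were not tested.

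With 1 array left out, genes called ran from 8 to 108 between young populations, 0 to 3 between old ones, 79 to 327 over both ages, 0 to 15 for age in MPP4 and 0 to 10 for the difference between the age differences. Members called ran from 0 to 1 in young mice and 3 to 9 over both ages. The members' median ran from 0.0306 to 0.159 for age in MPP3, 0.0106 to 0.0653 for age in MPP4, -0.120 to -0.0831 and -0.273 to -0.187 between young and old populations, -0.222 to -0.139 over both ages and -0.135 to -0.0133 for the difference between the age differences.

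The labels do not say what a replicate number stands for, and it was not taken to pair the arrays, since the deviations of same-numbered arrays from their group means correlated at -0.192 to 0.407. The 0.407 was that of young MPP3 and young MPP4 replicate 1, both in array set 1 with Xist above 1. With the replicate number as a block, 0 genes were called between young populations, and 29 genes and 1 member (Sel1l, -0.395, adjusted p = 0.0351, limma) over both ages.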
